A study of Mus musculus with 3 samples.

Results

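The genes described here are 7 genes listed as pump and transport genes of the corneal endothelium: Atp1b1, Fxyd4, Slc4a4, Slc4a11, Car3, Aqp1 and Cldn10. They were chosen by name and matched by Ensembl ID, and all 7 are among the 30406 gene IDs that every file lists. The name of the group comes from this choice. Fxyd4 was not higher in barcodes rich in endothelial markers in any of the 3 libraries, as given below. The data are UMI counts (counts of distinct captured RNA molecules) from nuclei of whole mouse corneas, measured with the 10x Genomics 3' kit, version 3. There are 3 libraries, each from the corneas of 5 pooled mice aged 7 weeks: WT (wild type, untreated), KO (Aire knockout, untreated) and KO_PBS (Aire knockout, treated with PBS, a saline buffer, for 14 days). Aire drives display of self-antigens in the thymus, and its loss gives autoimmune dry eye. The series text instead speaks of 6 weeks and day 7, and of a lacripep treatment whose samples were not used here.

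The corneal endothelium is the single cell layer on the inner face of the cornea. It keeps the stroma clear by moving ions, chiefly sodium and bicarbonate, back into the eye, with water following. The sodium pump sets the gradient, bicarbonate transporters and carbonic anhydrases supply the bicarbonate flux, and claudins shape the leaky junction between the cells. Loss of SLC4A11 in people causes a congenital dystrophy of this layer.

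Levels are in CPM, the UMIs of a gene per 1000000 UMIs of the same barcodes. Each group is a single library, so differences could not be set against a spread between replicates and there are no p-values. The 95% intervals (exact Poisson for CPM, Clopper-Pearson for shares) hold only the counting error. A gene is called higher or lower by a rule of size: at least 50 UMIs over both sides, at least 2-fold, and intervals that do not overlap. WT had 96587 barcodes with a median of 2253 UMIs, KO 107031 with 2970, and KO_PBS 114357 with 1422. The KO_PBS file lists another set of genes than the WT and KO files, and the part of this in the KO_PBS differences was not tested. Between 2833 and 3379 barcode sequences occurred in both libraries of a pair. Aire itself had 15, 27 and 68 UMIs in WT, KO and KO_PBS, so it did not check the labels, and each library is named as labelled.

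The 2 pump genes differed in opposite libraries: Atp1b1 stood out in KO_PBS and Fxyd4 in WT. Atp1b1 (ENSMUSG00000026576, chr1:164437109-164458355, minus strand, mm10) encodes the beta-1 subunit that carries the sodium pump to the membrane. Its level was 34.6 CPM in WT (95% interval 33.9 to 35.4), 35.4 in KO (34.7 to 36.0) and 209.7 in KO_PBS (207.6 to 211.9). The WT and KO intervals overlapped, and KO_PBS stood 5.93-fold above KO. Exons of Atp1b1 overlap those of Nme7 on the opposite strand, and the strand setting of the counting is not given in the sources used here.

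Fxyd4 (ENSMUSG00000004988, chr6:117933559-117937692, minus strand) encodes a small membrane protein that tunes the sodium pump and is best known from kidney and colon. It had 54.1 CPM in WT (53.2 to 55.0), 10.9 in KO (10.5 to 11.2) and 12.5 in KO_PBS (12.0 to 13.0). WT alone was high: the level was 4.99-fold lower in KO and 4.34-fold lower in KO_PBS.

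Slc4a4 (ENSMUSG00000060961, chr5:88886818-89239653, plus strand) encodes the sodium bicarbonate cotransporter that loads endothelial cells with bicarbonate. Its level went up in order from 53.9 CPM in WT (53.0 to 54.8) to 88.5 in KO (87.5 to 89.5) and 384 in KO_PBS (382 to 387). The step from KO to KO_PBS was 4.34-fold, while KO over WT was 1.64-fold and under the size rule. Slc4a11 (ENSMUSG00000074796, chr2:130684113-130697519, minus strand), the dystrophy gene, had 43.2 in WT (42.4 to 44.1), 44.2 in KO (43.5 to 44.9) and 157.6 in KO_PBS (155.8 to 159.5). Its WT and KO intervals overlapped, and KO_PBS was 3.57-fold above KO.

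Car3 (ENSMUSG00000027559, chr3:14863512-14872523, plus strand) encodes a cytosolic carbonic anhydrase that is also abundant in muscle and fat. Its level was 205 CPM in WT (203 to 207), 73.8 in KO (72.9 to 74.7) and 424 in KO_PBS (421 to 427). KO was the low library, 2.78-fold below WT, and KO_PBS was 5.75-fold above KO. Markers of skeletal muscle (4 genes) summed to 3.86, 5.43 and 99.4 CPM in WT, KO and KO_PBS. Adipocyte markers (3 genes) summed to 0.277, 0.159 and 1.97 CPM, from 71, 56 and 350 UMIs. The part of muscle or fat in the Car3 difference was not tested.

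Aqp1 (ENSMUSG00000004655, chr6:55336432-55348555, plus strand) encodes a water channel of both endothelium and stromal keratocytes. It had 80.1 CPM in WT (79.1 to 81.2), 153.6 in KO (152.3 to 154.9) and 251.6 in KO_PBS (249.3 to 254.0), the same order as Slc4a4. Red cells and vascular endothelium also carry this channel. Keratocyte markers (4 genes) summed to 610, 1638 and 1092 CPM, erythroid markers (3 genes) to 49.4, 180 and 1004, and vascular endothelium markers (5 genes) to 15.5, 43.8 and 111. The latter 2 sums followed the order of Aqp1, and the part of these cells in its level was not tested. Cldn10 (ENSMUSG00000022132, chr14:118787908-118875489, plus strand) encodes a claudin whose forms set ion passage between cells. It had 64.4 in WT (63.4 to 65.4), 21.4 in KO (20.9 to 21.9) and 73.7 in KO_PBS (72.5 to 75.0), so KO was 3.01-fold below WT and KO_PBS 3.45-fold above KO.

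**Figure D1:**
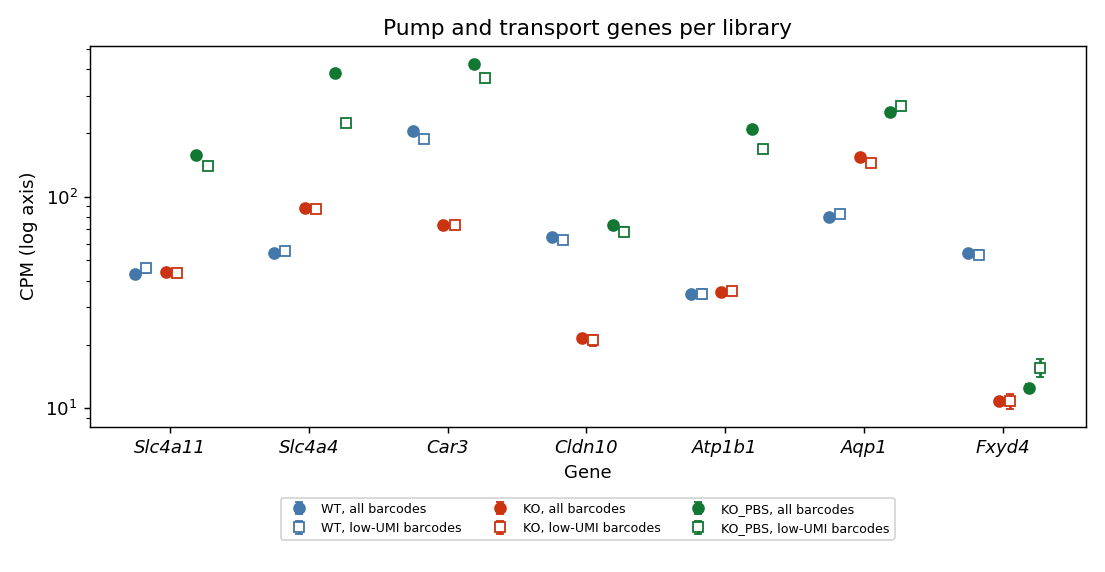
Level of each gene (CPM, log axis) in the 3 libraries, over all barcodes (filled circles) and over the 25% of barcodes with the fewest UMIs (open squares), with exact 95% Poisson intervals. Fxyd4 is high in WT only, Car3 and Cldn10 are lowest in KO, and the other 4 genes are highest in KO_PBS.

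Counted over the 7 genes, KO against WT gave 3 lower (Car3, Cldn10, Fxyd4) and 0 higher, where 8.63% of the 20252 genes with enough UMIs were called lower and 20.6% higher. The median log2 ratio was 0.03 over the members and 0.24 over all genes. KO_PBS against KO gave 5 higher and 0 lower, where 39.9% of genes were higher and 4.7% lower. The members' median log2 ratio was 1.84 and that of all genes 0.63. KO_PBS against WT gave 5 higher and 1 lower (Fxyd4), where 57% of genes were higher and 4.06% lower. Centred on the median gene, the same comparison gave 2 higher (Slc4a4, Atp1b1) and 2 lower (Cldn10, Fxyd4), where 29.6% of genes were higher and 23.1% lower. Each library enters 2 of the 3 comparisons, so the counts are not independent.

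Because the median gene was higher in KO_PBS, the ratios were also centred on it. The log2 ratio of KO_PBS over WT then became 1.56 for Slc4a4, 1.33 for Atp1b1, 0.60 for Slc4a11 and 0.38 for Aqp1. Car3 turned from 1.05 to -0.22, and Cldn10 from 0.20 to -1.07, so the direction of both between KO_PBS and WT depended on the scaling. Fxyd4 moved to -3.39. Against KO, Car3 (1.89), Atp1b1 (1.94), Slc4a4 (1.49), Slc4a11 (1.21) and Cldn10 (1.15) were still called higher after centring, where 29.8% of genes were. In sums over whole libraries, fewer cells of a type and less RNA per cell cannot be told apart.

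Markers of tissues next to the cornea moved with the KO_PBS library. Lens markers (7 genes) summed to 329 CPM in WT, 141 in KO and 6532 in KO_PBS. Markers of pigment and ciliary epithelium (5 genes) summed to 172, 54.4 and 2043, and melanocyte markers (2 genes) to 368, 102 and 2245. Ciliary epithelium is itself a bicarbonate- and water-transporting layer. The part of these tissues in the KO_PBS levels was not tested. Leukocyte markers (4 genes) summed to 68.8, 2318 and 2042, and corneal epithelium markers (5 genes) to 38211, 23295 and 10012. Of corneal endothelium markers, Col8a1, Col8a2 and Tfap2b summed to 142, 190 and 661, and 7 other genes to 255, 530 and 569.

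Promoters are shown for the members that were lower in KO, to let their sequences be compared, where RefSeq entries (GRCm38.p6) were matched, which was the case for Fxyd4 and Cldn10. They run over the 250 bases before each RefSeq start, for both starts of Cldn10. The Fxyd4 stretch and that of the second Cldn10 start lie inside the gene spans given above, which come from another annotation. Capitals mark matches, on either strand, to GCCNNNGGC (the core of AP-2 sites, bound by factors such as Tfap2b) or GGGCGG (the GC box), and overlapping matches run together.
Fxyd4, chr6:117937336-117937585, minus strand: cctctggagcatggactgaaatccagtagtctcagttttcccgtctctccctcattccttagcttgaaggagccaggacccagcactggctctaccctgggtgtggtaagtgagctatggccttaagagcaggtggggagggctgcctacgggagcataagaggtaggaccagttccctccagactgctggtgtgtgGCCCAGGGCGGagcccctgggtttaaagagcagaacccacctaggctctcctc
Cldn10 first start, chr14:118787621-118787870, plus strand: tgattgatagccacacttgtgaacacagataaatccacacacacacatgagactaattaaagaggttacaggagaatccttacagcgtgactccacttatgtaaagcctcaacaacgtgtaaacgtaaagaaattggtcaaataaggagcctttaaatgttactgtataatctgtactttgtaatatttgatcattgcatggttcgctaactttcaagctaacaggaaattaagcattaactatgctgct
Cldn10 second start, chr14:118854700-118854949, plus strand: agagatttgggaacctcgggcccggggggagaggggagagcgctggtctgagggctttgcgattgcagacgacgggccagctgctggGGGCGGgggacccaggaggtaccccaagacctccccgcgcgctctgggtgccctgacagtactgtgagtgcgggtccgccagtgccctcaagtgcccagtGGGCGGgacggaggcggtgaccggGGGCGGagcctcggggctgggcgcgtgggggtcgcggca
The Fxyd4 stretch holds 1 match to each motif, with the matches overlapping, and 58% G and C. The second Cldn10 start holds 3 GC boxes and 72.4% G and C, while the first holds neither motif and 36% G and C. Counting at the 3' end cannot tell which start was used. Of 32851 promoter stretches of this length, 13.7% hold GCCNNNGGC and 32.7% hold GGGCGG, so the letters are common. Among all 7 stretches of the 5 matched members, GCCNNNGGC occurs in Aqp1 and Fxyd4.

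Whether the genes are used in the same nuclei was read from barcodes with at least 1 UMI of Slc4a11 and 1 of Car3, called double-positive. There were 4368 in WT (4.52% of barcodes, 4.39 to 4.66), 3577 in KO (3.34%, 3.24 to 3.45) and 10974 in KO_PBS (9.60%, 9.43 to 9.77). With every barcode thinned to 1000 UMIs the shares were 1.06%, 0.525% and 4.92%. Too shallow for this were 265 WT, 226 KO and 16860 KO_PBS barcodes, which were left out.

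These shares are not given as shares of endothelial nuclei. Barcodes with leukocyte UMIs, which should lack both genes, were double-positive at 0.463% in KO (0.290 to 0.700, 22 of 4754) and 5.09% in KO_PBS (3.43 to 7.23, 29 of 570) after the same thinning. Their median depth before thinning was 4486.5 and 2359 UMIs, against 2972 and 1521 over all thinned barcodes. The shares over all barcodes, 0.525% in KO and 4.92% in KO_PBS, lay within these intervals. The intervals rest on 22 and 29 double-positive barcodes and are wide. They thus cannot decide whether the shares differ from those of leukocyte-marker barcodes. In WT only 7 such barcodes were found, too few for the same comparison. At the same depth Car3 was more frequent beside Slc4a11 than without it. It was found in 25.6% of WT barcodes with Slc4a11 and 15.6% of those without, in 12.5% and 6.49% in KO, and in 36.7% and 32.5% in KO_PBS. The part of free RNA in these shares was not tested. Levels in the 25% of barcodes with the fewest UMIs lay near those of the whole library too, for example 45.9 against 43.2 CPM for Slc4a11 in WT and 139 against 157.6 in KO_PBS. The widest gap was Slc4a4 in KO_PBS, with 223 against 384.

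The other 5 genes did not choose the barcodes, so their levels in double-positive barcodes were compared with those in barcodes with neither gene. In WT, Cldn10 had 181 CPM in double-positive barcodes (175 to 187) against 46.2 (45.1 to 47.3), Atp1b1 80.3 (76.3 to 84.6) against 27.6 (26.7 to 28.4), and Aqp1 181 (175 to 188) against 63.4 (62.1 to 64.7). These 3 of 5 were called higher, where 2.77% of all genes were. Slc4a4, at 89.0 against 47.3, was 1.88-fold higher and under the size rule. Fxyd4, at 53.1 (49.8 to 56.6) against 54.2 (53.0 to 55.5), was at the same level on both sides within counting error.

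In KO, Cldn10 had 65.9 CPM (61.9 to 70.1) against 17.6 (17.0 to 18.1), and Atp1b1 102 (97.2 to 108) against 30.2 (29.5 to 30.9). These 2 of 5 were called, against 0.541% of all genes, and Aqp1 at 273 against 143 fell just short with 1.91-fold. In KO_PBS only Cldn10 passed, with 129 (124 to 134) against 62.4 (60.7 to 64.2), again with 0.541% of genes called. That call was lost when barcodes were thinned and when the 5% with the most UMIs were left out. The share of all genes called was not counted in either case. Double-positive barcodes were deeper, with a median of 2935.5, 3736 and 1770 UMIs in WT, KO and KO_PBS against 2150, 2860 and 1288 in barcodes with neither gene.

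Asking for 2 UMIs of each gene left 568 WT, 421 KO and 1430 KO_PBS barcodes and widened these differences. Cldn10 was then 9.55-fold higher than in barcodes with neither gene in WT, 12.7-fold in KO and 4.74-fold in KO_PBS. Atp1b1 was 6.21-, 11.2- and 2.89-fold higher, Aqp1 6.31-, 4.58- and 3.18-fold, and Slc4a4 3.46-, 2.96- and 3.55-fold. So 4 of 5 were called in each library, where 5.15%, 2.66% and 3.99% of genes were. Fxyd4 had 48.7 CPM in WT (41.3 to 57.0), 9.48 in KO (5.62 to 15.0) and 7.99 in KO_PBS (5.50 to 11.2) in these barcodes. None of these was above the level in barcodes with neither gene (54.2, 10.9 and 13.2).

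**Figure D2:**
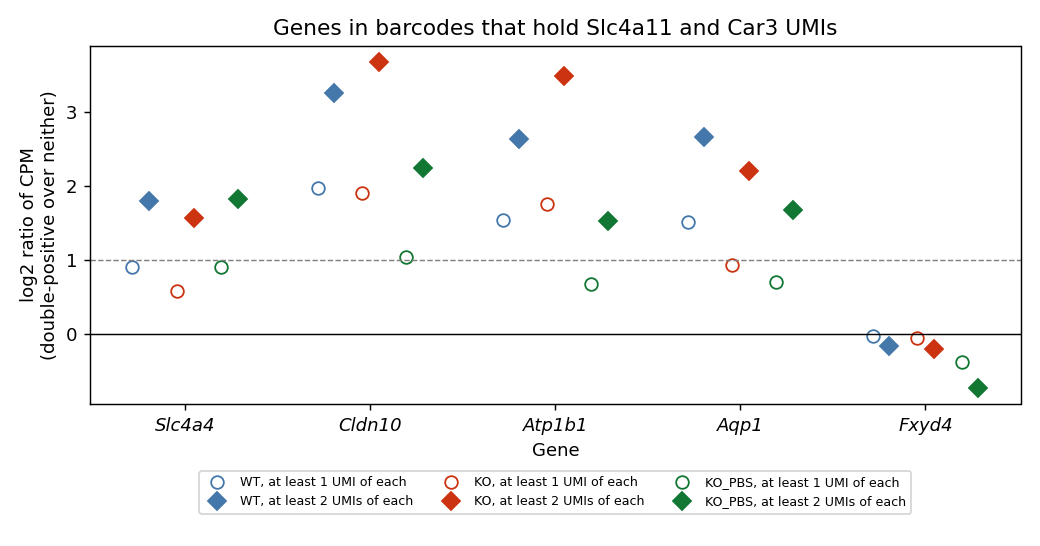
log2 ratio of CPM in double-positive barcodes over barcodes with neither Slc4a11 nor Car3, for the 5 genes that did not choose the barcodes. Open circles ask for 1 UMI of each, filled diamonds for 2, and the dashed line is the 2-fold size rule. Fxyd4 lies at or below 0 in every library while the other 4 lie above 1 with 2 UMIs of each.

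The endothelial label was checked with genes that are not members. Of 7 other endothelial genes, 5 were higher in the barcodes with 2 UMIs of each in WT, 4 in KO and 5 in KO_PBS, where 5.15%, 2.66% and 3.99% of all genes were. Summed over the 7, the level was 435 CPM against 243 in barcodes with neither gene in WT, 709 against 524 in KO and 1470 against 506 in KO_PBS. Cdh2, the N-cadherin of this layer, had 36.4 against 8.73 CPM in WT, 46.9 against 9.81 in KO and 196 against 55.1 in KO_PBS. Foxc1 was not called in any library. Col8a2, a collagen of the layer's basement membrane, was higher in all 3, with 343 against 48.1 in WT, 441 against 51.9 in KO and 955 against 277 in KO_PBS. The same barcodes still held corneal epithelium markers, at 34177 CPM in WT, 20024 in KO and 7359 in KO_PBS, against 38379, 23377 and 10283 in barcodes with neither gene. Lens markers there were at 460, 260 and 4794 CPM, against 314, 141 and 6819. Keratocyte markers were at 822, 1519 and 934 CPM, against 566, 1627 and 1094. Markers of other tissues thus remained in these barcodes. Lens markers in WT and KO and keratocyte markers in WT were even higher there than in barcodes with neither gene. The barcodes are not named as a cell type.

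The same comparison was made with barcodes chosen by genes that are not members. Barcodes with at least 3 UMIs over Col8a1, Col8a2 and Tfap2b came to 2011 for WT, 4724 for KO and 11043 for KO_PBS. In WT, 6 of 7 members were higher there than in other barcodes, where 4.88% of genes were. Car3 had 736 CPM (720 to 753) against 182 (180 to 184), Cldn10 213 against 58.0, Slc4a11 121 against 39.9, Aqp1 213 against 74.4, Atp1b1 87.7 against 32.3 and Slc4a4 108 against 51.6. Fxyd4, the exception, had 51.6 (47.3 to 56.1) against 54.2 (53.3 to 55.2). Keratocyte markers in these WT barcodes summed to 1008 CPM against 592, erythroid markers to 78.8 against 48.2 and corneal epithelium markers to 36555 against 38282. The 7 other endothelial genes summed to 334 against 252. In KO keratocyte markers were at 1844 against 1624 and the 7 genes at 592 against 526. In KO_PBS these were 1049 against 1099 and 867 against 521. The part of keratocytes in the members' levels was not tested.

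In KO, 4 of 7 members were higher in the marker-selected barcodes (Slc4a11, Car3, Cldn10 and Atp1b1, each between 2.05- and 2.24-fold), where 0.312% of genes were. Col8a1 gave 58.1% of the marker UMIs in those barcodes, against 38.3% in WT and 45.9% in KO_PBS. With 2 marker UMIs in place of 3, 0 of 7 were called in KO. In KO_PBS only Slc4a11 was called, 2.23-fold higher (0.877% of genes called), and this call was lost with 2 marker UMIs or without the 5% deepest barcodes. The share of all genes called was not counted with 2 marker UMIs or without the 5% deepest barcodes. With 5 marker UMIs, 6 of 7 were called in WT, 4 in KO and 6 in KO_PBS, where 7%, 1.01% and 3.35% of genes were. The fold over other barcodes was greater with 5 marker UMIs than with 3 for every member except Fxyd4, in each library. Slc4a4 in KO_PBS, for example, went from 313 CPM in barcodes with 0 marker UMIs to 980 in barcodes with 5 or more, and Car3 in WT from 162 to 1390.

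**Figure D3:**
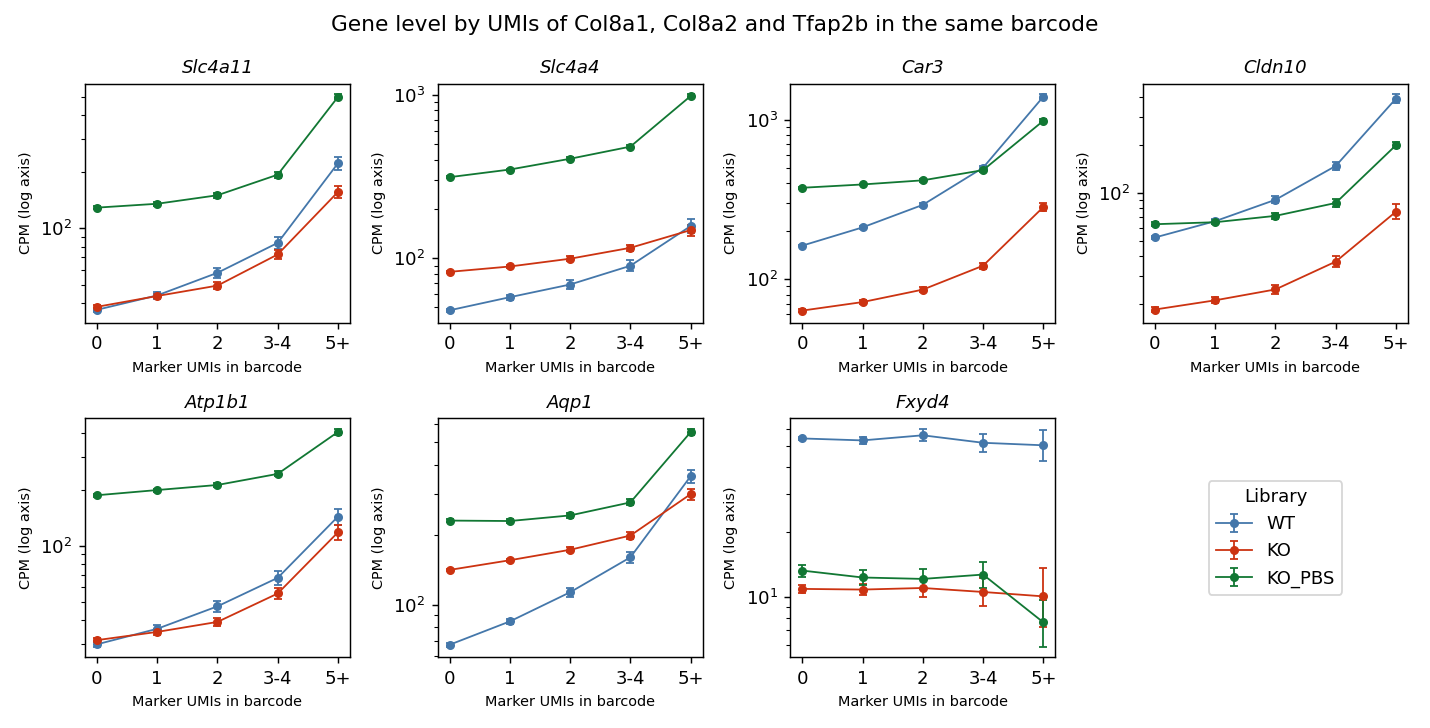
Level of each gene (CPM, log axis) in barcodes grouped by their summed UMIs of Col8a1, Col8a2 and Tfap2b, per library, with exact 95% Poisson intervals. Levels of 6 genes are highest at 5 or more marker UMIs in every library; Fxyd4 stays near 54 in WT and 11 in KO and is lowest there in KO_PBS.

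Pairs of the genes were also compared at equal depth, as the share of thinned barcodes with a gene among those with a partner over those without it. Over the 30 ordered pairs of the 6 genes other than Fxyd4, this ratio ran from 1.23 to 1.98 in WT (median 1.56), 1.05 to 2.08 in KO (median 1.30) and 1.06 to 1.32 in KO_PBS (median 1.17). Cldn10 and Atp1b1 made the pair with the highest ratio in WT and KO. Over the 12 ordered pairs with Fxyd4 the medians were 0.999, 0.967 and 0.973, and the highest ratio was 1.29, with Cldn10 in KO. Pairs share the library and its depth, so the ratios describe the libraries and are no test.

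**Figure D4:**
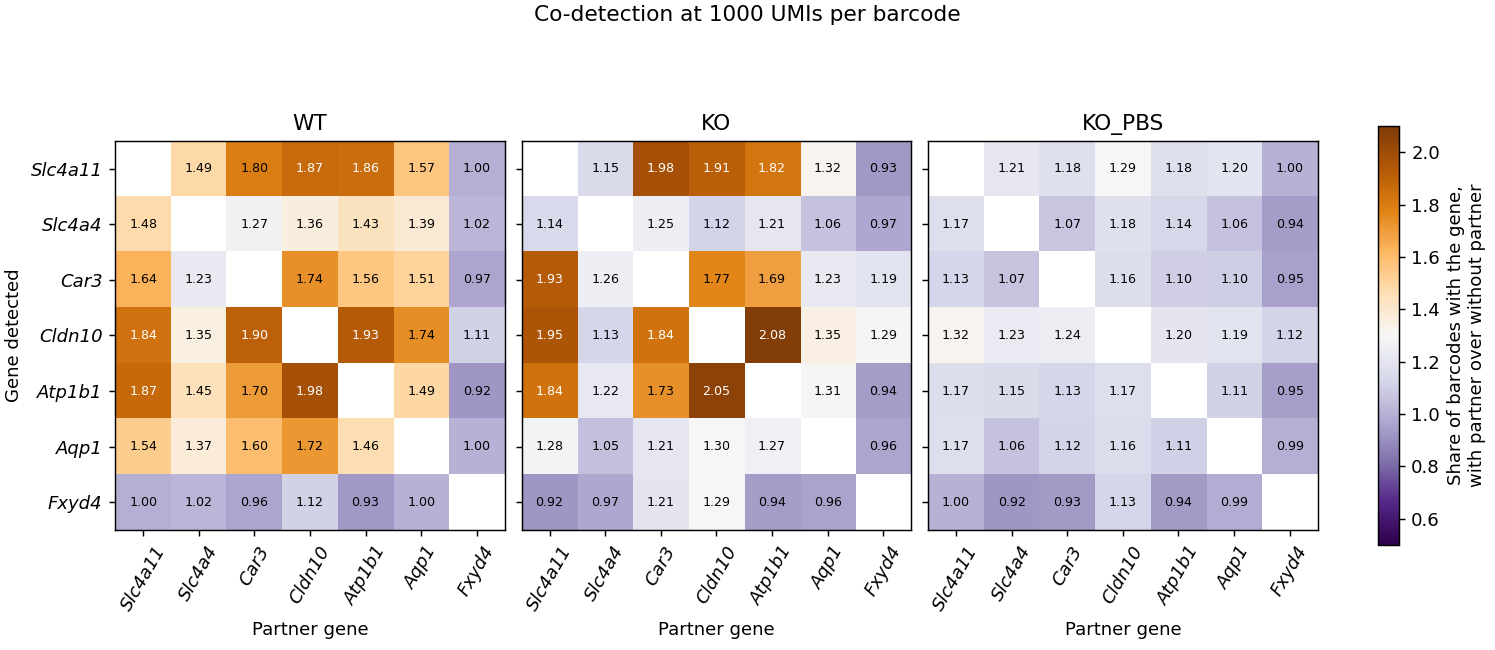
Share of barcodes with the row gene among barcodes with the column gene, divided by the share among barcodes without it, each barcode thinned to 1000 UMIs. Ratios in the row and column of Fxyd4 lie between 0.922 and 1.29, and ratios of the other 6 genes are lower in KO_PBS than in WT for each of the 30 ordered pairs.

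The spread of each gene's UMIs over barcodes was then compared. In WT, 6.93% of the Fxyd4 UMIs lay in double-positive barcodes, which held 7.06% of all UMIs. Cldn10 had 19.9% of its UMIs there, Atp1b1 16.4%, Aqp1 16.0% and Slc4a4 11.7%. The most UMIs in 1 WT barcode were 6 for Fxyd4, 10 for Slc4a4, 13 for Atp1b1, 14 for Slc4a11, 31 for Aqp1, 34 for Cldn10 and 108 for Car3. There were 144 WT barcodes with 3 or more UMIs of Atp1b1 and 135 with 3 or more of Fxyd4. The Fxyd4 barcodes were deep (median 7088 UMIs). Their endothelial selector genes (Col8a1, Col8a2 and Tfap2b) summed to 0.892 times the level in barcodes without Fxyd4, and corneal epithelium markers to 1.12 times. KO and KO_PBS had 1 such barcode each.

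The other 6 genes differed in the company they kept. Barcodes with 3 or more Slc4a11 UMIs had 5.03 times the summed selector genes of barcodes with none in WT, 3.49 times in KO and 4.30 times in KO_PBS. For Atp1b1 these ratios were 6.74, 3.46 and 2.95, and for Cldn10 4.05, 4.67 and 5.41. Aqp1 had 3.44, 1.53 and 3.45, and Slc4a4 2.53, 1.54 and 1.95. Keratocyte markers were at 2.65, 1.42 and 0.855 times in the Aqp1 barcodes and at 1.89, 1.19 and 0.805 times in those of Slc4a4. In the Aqp1 barcodes vascular endothelium markers were at 1.88, 1.23 and 1.15 times and erythroid markers at 0.859, 1.38 and 0.668 times. For Slc4a11, Car3, Cldn10 and Atp1b1 the keratocyte ratio lay between 1.30 and 1.41 in WT and below 1 in the other libraries. The selector ratios for Car3 were 2.51, 2.83 and 2.56. The 7 other endothelial genes gave lower ratios than the selector genes for Slc4a11 (1.98, 1.27 and 2.96), Atp1b1 (2.38, 1.26 and 2.28), Cldn10 (1.66, 1.57 and 3.64), Aqp1 (1.55, 1.06 and 2.41), Slc4a4 (1.62, 1.21 and 1.74) and Car3 (1.40, 1.26 and 1.96). Lens markers in the same barcodes were at 1.39, 2.00 and 0.706 times for Slc4a11, 1.24, 2.23 and 0.644 times for Atp1b1 and 1.23, 2.48 and 0.547 times for Cldn10. For Car3 they were at 1.27, 1.41 and 0.817 times, for Aqp1 at 1.21, 1.13 and 0.713 times and for Slc4a4 at 0.938, 1.02 and 0.673 times. In KO the lens ratio exceeded that of the 7 endothelial genes for each of the 6 except Slc4a4. Their part in these ratios was not tested. Skeletal muscle markers in the Car3 barcodes were at 2.91 times in WT (from 171 UMIs), 0.971 times in KO (from 21 UMIs) and 0.769 times in KO_PBS. In the Aqp1 barcodes they were at 4.11 times in WT (from 59 UMIs), 1.18 times in KO (from 91 UMIs) and 0.748 times in KO_PBS.

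The differences between libraries were then read within the double-positive and the marker-selected barcodes. The same UMI limits were used at unequal depth, so they need not choose like barcodes in each library. Double-positive barcodes of KO_PBS had a median depth of 1770 UMIs, those of KO 3736 and those of WT 2935.5. Marker-selected barcodes of KO_PBS had a median of 1928, those of KO 4038 and those of WT 3553. The part of this in the differences between libraries was not tested. For KO against WT in double-positive barcodes, 2 of the 5 genes that did not choose them were lower, Cldn10 (2.75-fold) and Fxyd4 (5.06-fold), where 4.05% of genes were lower. With 2 UMIs of each, only Fxyd4 was called (5.14-fold), with 2.43% of genes lower, and Cldn10 at 223 against 441 CPM was 1.98-fold lower, just under the rule. Atp1b1 (339 against 171 CPM), Aqp1 (655 against 400) and Slc4a4 (251 against 164) were higher in KO there, also under the rule. In marker-selected barcodes Car3 (4.81-fold), Cldn10 (4.78-fold) and Fxyd4 (4.94-fold) were lower, with 4.32% of genes lower. In all these choices of barcodes Fxyd4 lay near its whole-library level in WT and KO, so its calls nearly repeat the whole-library difference. Barcodes that were not double-positive gave the same 3 lower, with Car3 2.82-fold, Cldn10 2.86-fold and Fxyd4 4.99-fold lower (7.96% of genes lower). They held 92.9% of the WT UMIs and 95.7% of the KO UMIs, so this comparison nearly repeats that of the whole libraries. Car3 is part of the rule that set these barcodes apart, so its value there is only a description. Aqp1 was called higher in KO there, at 148 against 72.5 CPM (2.05-fold, where 21.2% of genes were higher), while over all barcodes it was 1.92-fold higher and under the rule. Marker-selected barcodes showed almost no Aqp1 difference, with 219 CPM for KO and 213 for WT (1.03-fold, overlapping intervals). Raising the limit to 5 marker UMIs turned the direction: Aqp1 was 1.19-fold lower in KO (300 and 358 CPM), under the rule.

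The limit of unequal depth applies most to KO_PBS, where these barcodes were the shallowest. For KO_PBS against KO, Slc4a4, among the 5 genes that did not choose the double-positive barcodes, was called higher in every choice of barcodes run. It was 4.81-fold higher in double-positive barcodes, where 28.4% of genes were higher, 4.60-fold with 2 UMIs of each, where 24.4% were, and 5.36-fold in marker-selected barcodes, where 29.2% were. Atp1b1 was 2.94-fold higher in double-positive barcodes but 1.61-fold with 2 UMIs of each, and Cldn10 was 1.96- and 1.32-fold. Over these 5 genes the calls went from 3 over all barcodes to 1 with 2 UMIs of each. In marker-selected barcodes all 5 remained called (Slc4a11, Slc4a4, Car3, Cldn10 and Atp1b1). For KO_PBS against WT in marker-selected barcodes, Slc4a11, Slc4a4 and Atp1b1 were higher and Fxyd4 lower, with 46.9% and 4.53% of genes called in those directions. Car3 there was 655 against 736 CPM.

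Related pump, transport and junction genes (42 genes in 5 lists) were followed beside the members. For KO against WT, 8 of 42 were higher and 2 lower, against 20.6% and 8.63% of all genes. Fxyd5, a FXYD protein of epithelia and immune cells, was at 78.4 CPM in KO and 5.51 in WT, the opposite direction to Fxyd4. Slc2a1, the GLUT1 glucose transporter, was at 44.0 against 17.8, and Aqp5, the water channel of the corneal epithelium, at 4640 against 9303. For KO_PBS against KO, 22 of 42 were higher and 1 lower, against 39.9% and 4.7% of all genes.

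The sodium pump list (11 genes) had 7 higher in KO_PBS than in KO, read against the same 39.9%. Atp1b2, a beta subunit of the pump known from nerve and glia, was at 45.5 CPM against 1.55, and Fxyd1, a pump regulator of muscle, at 161 against 18.5. Of 11 bicarbonate and acid-base genes, 6 were higher (39.9% of all genes), among them Car14 (80.1 against 2.68), Slc4a5 (98.4 against 4.22) and Car2 (30.0 against 2.33). Slc4a5 and Car2 are known from the ciliary epithelium and choroid plexus, and the marker sums of pigment and ciliary epithelium given above were higher in KO_PBS too, and their part was not tested. Slc16a1, a lactate carrier, was at 23.8 against 6.65, Slc2a1 at 145 against 44.0 and Gja1, a gap junction protein, at 277 against 136. Aqp5 was lower, at 1895 against 4640.

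In double-positive barcodes against barcodes with neither gene, 3 of the 42 related genes were higher in WT, 1 in KO and 0 in KO_PBS, where 2.77%, 0.541% and 0.541% of all genes were. Bsg, the chaperone that brings lactate carriers to the membrane, was at 1159 CPM against 565 in WT and 851 against 384 in KO. With 2 UMIs of each gene it was 4.14-fold higher in WT, 6.67-fold in KO and 2.15-fold in KO_PBS. Bsg was singled out here after its values were seen.

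Genes with the most similar pattern were ranked by their lowest log2 ratio of double-positive over neither barcodes across the 3 libraries, among 11228 genes. Col4a4, a basement membrane collagen, came first with a lowest log2 ratio of 1.33, followed by Tmem178 (1.33), Nphs1 (1.24), Slc14a1, a urea transporter (1.20), and Frem3 (1.15). Col4a4 was at 106 against 35.5 CPM in WT, 72.2 against 28.8 in KO and 310 against 117 in KO_PBS. Among the members on the same scale, Cldn10 ranked 6, Aqp1 37, Atp1b1 42, Slc4a4 56 and Fxyd4 11156. The ranking used 3 libraries with Slc4a11 and Car3 as its anchor and describes these barcodes.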

How the data were processed

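The authors deposited 1 matrix of UMI counts per library, as whole numbers that were not normalized, with gene and barcode lists. Per the submitters' processing notes the counts came from Cell Ranger 7.0.1 on mm10; the annotation, the handling of intronic reads, the strand setting and the barcode filter are not given in the sources used here. The WT and KO files list 32285 genes and the KO_PBS file 31053. Of the IDs found in all 3 files, 597 carry another symbol in KO_PBS than in WT. In the comparisons of KO_PBS the gene list thus differs together with the treatment. The 30406 IDs in all 3 were used, and they held 99.6% of WT's 256852883 UMIs, 99.6% of KO's 352627863 and 99.3% of KO_PBS's 178988562.

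UMIs were summed per library or class of barcodes and divided by that class's total to give CPM, with exact Poisson intervals, and shares have Clopper-Pearson intervals (pandas 2.3.3 and scipy 1.17.1 in python 3.11.15, with numba 0.67.0, numpy 2.4.6 and matplotlib 3.10.9). In the size rule, counts below 3 were set to 3. All barcodes in the files were used; barcodes with at least 500 genes and at most 5% mitochondrial UMIs were an alternative. No doublet caller was run, and leaving out the 5% of barcodes with the most UMIs stood in for one. Leukocyte barcodes had at least 3 UMIs over Ptprc, Cd3e and Cd79a. The code was tested on simulated data.

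The 7 genes are always named. Related genes are named when they pass the size rule with at least 20 CPM, at most 4 per list, and the 5 most similar genes by rank; a few list members are not reported here. The members, lists and rules were chosen with earlier results of these data known. Gene coordinates are from GENCODE (GRCm38), and promoter sequences from RefSeq (GRCm38.p6), which had entries matched for 5 of the 7 genes. Nuclei are not replicates: the mice of a group were pooled.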

Additional observations from a re-analysis of the deposited data

How the results depend on the processing

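No paired analysis was possible because each group is 1 library. For the counts of members past the size rule, 47 alternative values stayed within 1.5 times the main count. KO against WT went from 3 to 1 and KO_PBS against KO from 5 to 1 in double-positive barcodes with 2 UMIs of each gene, a choice made after seeing the data. Slc4a11 and Car3 choose those barcodes, so their values there are only a description. Over the other 5 genes the counts went from 2 to 1 and from 3 to 1. Double-positive against neither barcodes went from 2 to 4 in KO with 2 UMIs of each. In KO_PBS it went from 1 to 4 with 2 UMIs of each, to 0 with barcodes thinned to 1000 UMIs and to 0 without the 5% of barcodes with the most UMIs. Marker-selected against other barcodes went from 4 to 0 in KO with 2 marker UMIs. In KO_PBS it went from 1 to 0 with 2 marker UMIs, to 6 with 5, and to 0 without the 5% of barcodes with the most UMIs. For thinned barcodes, 2 marker UMIs and barcodes without the deepest 5%, the share of all genes called was not counted. The log2 ratio of Car3 in KO_PBS over WT, 1.05 over all barcodes, was -0.22 centred on the median gene, -0.00673 in double-positive barcodes with 2 UMIs of each, -0.17 in marker-selected barcodes and -0.50 with 5 marker UMIs; the last 3 were added after seeing the data, and Car3 itself chose the double-positive barcodes, so that value is only a description. The cause of these changes was not tested. Single-gene ratios between libraries were judged against the counting error of the whole-library counts only. The larger error of alternatives with few barcodes was not included, so a move can lie within that larger error. Of the single-gene values, 124 stayed within the counting error used, 247 moved beyond it and the 4 of Car3 above reversed a called direction. Cldn10 in KO_PBS over WT, under the size rule at 0.20, also changed sign: it was -1.07 centred, -0.49 in double-positive barcodes, -0.58 with 2 UMIs of each, -0.76 in marker-selected barcodes and -0.98 with 5 marker UMIs. Other log2 ratios under the size rule crossed 0 too over the 12 alternatives. For KO over WT, Slc4a4 ran from -0.08 to 0.76 and Aqp1 from -0.26 to 1.03. Slc4a11 ran from -0.51 to 0.53 and Atp1b1 from -0.37 to 0.98. For KO_PBS over KO, Fxyd4 ran from -0.43 to 0.53. The log2 ratio of Fxyd4 in KO over WT stayed between -2.56 and -2.30 over 12 alternatives, and that of Slc4a4 in KO_PBS over KO between 1.34 and 2.72. Depth limits the Fxyd4 values in double-positive barcodes with 2 UMIs of each, which rest on 18 UMIs in KO and 33 in KO_PBS.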
